A study of Mus musculus with 9 samples.

Results

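The neuregulin and ErbB genes of the perinatal mouse heart were described from the deposited RNA-seq values of 9 hearts. They are 8 genes in all, the ligand genes *Nrg1*, *Nrg2*, *Nrg4* and *Hbegf* and the receptor genes *Egfr*, *Erbb2*, *Erbb3* and *Erbb4*. They were chosen by symbol, and all 8 were found among the 48820 genes of the table. The hearts came from WT C57BL/6J mice that received no treatment, and no gene was altered in any group. They fell into 3 stages, E18.5d (embryonic day 18.5), P1d (the 1st day after birth) and P7d (the 7th day after birth), with 3 biological replicates each. The labels give the tissue as heart, without naming a chamber, and the sex of every animal as male. Levels are given as FPKM, fragment values scaled to transcript length and to the size of the library, which allows levels of different genes to be compared. Changes are given on the scale of log2(FPKM + 1), with their SE and with the adjusted p of a limma fit over all genes tested, and a gene was called at an adjusted p under 0.05.

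The libraries held about 25000000 to 43500000 fragments, as estimated from the steps between low FPKM values. By stage this was 25000000 to 37250000 at E18.5d, 26750000 to 29000000 at P1d and 35500000 to 43500000 at P7d. P1d and P7d did not overlap, so depth and stage cannot be told apart between them. The tissue label was borne out by the 8 cardiomyocyte markers, all above 1 FPKM in every heart. The sex label did not match 4 hearts, E18.5d replicates 1 and 3 and P7d replicates 2 and 3. These held *Xist*, the RNA of X inactivation, at 58.0 to 97.0 FPKM and the 4 Y-linked genes examined at 0. The other 5 hearts, all of P1d among them, held *Xist* at 0.11 FPKM at most. In addition, the airway epithelial genes *Scgb1a1*, *Scgb3a1*, *Scgb3a2* and *Reg3g* summed to 99.3 FPKM or more in E18.5d replicates 1 and 2 and P1d replicate 1, against 3.29 FPKM at most in the other 6 hearts. The changes of the members that were tested are therefore given with and without these hearts. For the pathway genes, the outcome without them is given in brief, and other values are over all hearts. In whole hearts, fewer cells of a type and less RNA per cell cannot be told apart.

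Neuregulins and HB-EGF belong to the EGF family of growth factors. They are made as membrane-bound precursors, released by metalloproteases, and bind ErbB receptors, which then pair and phosphorylate each other. Neuregulin 1 and neuregulin 2 bind ErbB3 and ErbB4, neuregulin 4 binds ErbB4, and HB-EGF binds EGFR and ErbB4. ErbB2 has no ligand of its own and serves as the preferred partner of the others, while ErbB3 has little kinase activity. In the heart, neuregulin 1 is known as a signal from endocardium and endothelium to the ErbB2 and ErbB4 receptors of cardiomyocytes, needed for trabeculation in the embryo and able to support cardiomyocyte proliferation, and HB-EGF is known for its part in shaping the valves.

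The coding sequence of the catalytic loop is shown for the receptors because the reads of these related genes were assigned by sequence. Each stretch of 60 bases lies in 1 coding exon, 5′ to 3′ on the coding strand, with the codon of the catalytic aspartate in capitals (GENCODE M21, GRCm38).
*Egfr*, chr11:16904320-16904379, plus strand: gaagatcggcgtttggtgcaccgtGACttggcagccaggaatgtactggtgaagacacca
*Erbb2*, chr11:98434229-98434288, plus strand: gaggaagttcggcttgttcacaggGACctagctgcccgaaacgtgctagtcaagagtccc
*Erbb3*, chr10:128572515-128572574, minus strand: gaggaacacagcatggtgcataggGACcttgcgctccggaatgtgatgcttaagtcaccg
*Erbb4*, chr1:68080721-68080780, minus strand: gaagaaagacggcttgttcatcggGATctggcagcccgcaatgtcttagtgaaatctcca
Even in this conserved stretch, the pairs of receptors were identical at 36 (*Erbb3* and *Erbb4*) to 42 (*Erbb2* and *Erbb4*) of the 60 bases. How the authors treated fragments that match several genes is not given in the sources used here.

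The EGF-like domain, the part of a neuregulin that binds the receptor, is shown from its first to its last cysteine for *Nrg1*, the ligand whose change passed the test, and for *Nrg4*, whose P1d hearts stood above the others. The 6 cysteine codons are in capitals, and each domain is joined from 2 coding exons on the minus strand.
*Nrg1*, chr8:31837698-31849398: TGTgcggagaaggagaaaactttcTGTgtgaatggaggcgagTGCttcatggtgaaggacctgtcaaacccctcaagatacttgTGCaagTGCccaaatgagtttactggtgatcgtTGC
*Nrg4*, chr9:55242177-55280969: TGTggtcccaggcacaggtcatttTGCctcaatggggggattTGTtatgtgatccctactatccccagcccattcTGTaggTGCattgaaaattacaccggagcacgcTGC
The distance from the first to the last cysteine codon is 120 bases in *Nrg1* and 111 bases in *Nrg4*. The FPKM values are gene totals, so the isoforms of *Nrg1* and *Erbb4* were not resolved.

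*Nrg1* and *Erbb2* fell from before birth to P7d, *Erbb4* was highest at P1d and lowest at P7d, and no change of *Erbb3* or *Egfr* passed the test. Of the 8 genes, 6 averaged 1 FPKM or more across all hearts and were tested, and *Nrg2* and *Nrg4* were below it. At P1d against E18.5d, 3 of the 6 were called, with *Erbb4* higher and *Nrg1* and *Erbb2* lower. Among all 13618 genes tested in that comparison, 46.0% were called, 18.4% higher and 27.6% lower. At P7d against E18.5d, *Nrg1*, *Erbb2* and *Erbb4* were called, all lower, against a background of 49.4% called, 12.5% higher and 36.9% lower. At P7d against P1d, *Erbb2* and *Erbb4* were called, both lower, where 44.2% of all genes were called, 15.5% higher and 28.6% lower. The shares of members called, 3, 3 and 2 of 6, were thus close to those of all genes. The 3 comparisons share hearts and are not independent of each other.

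**Figure D1:**
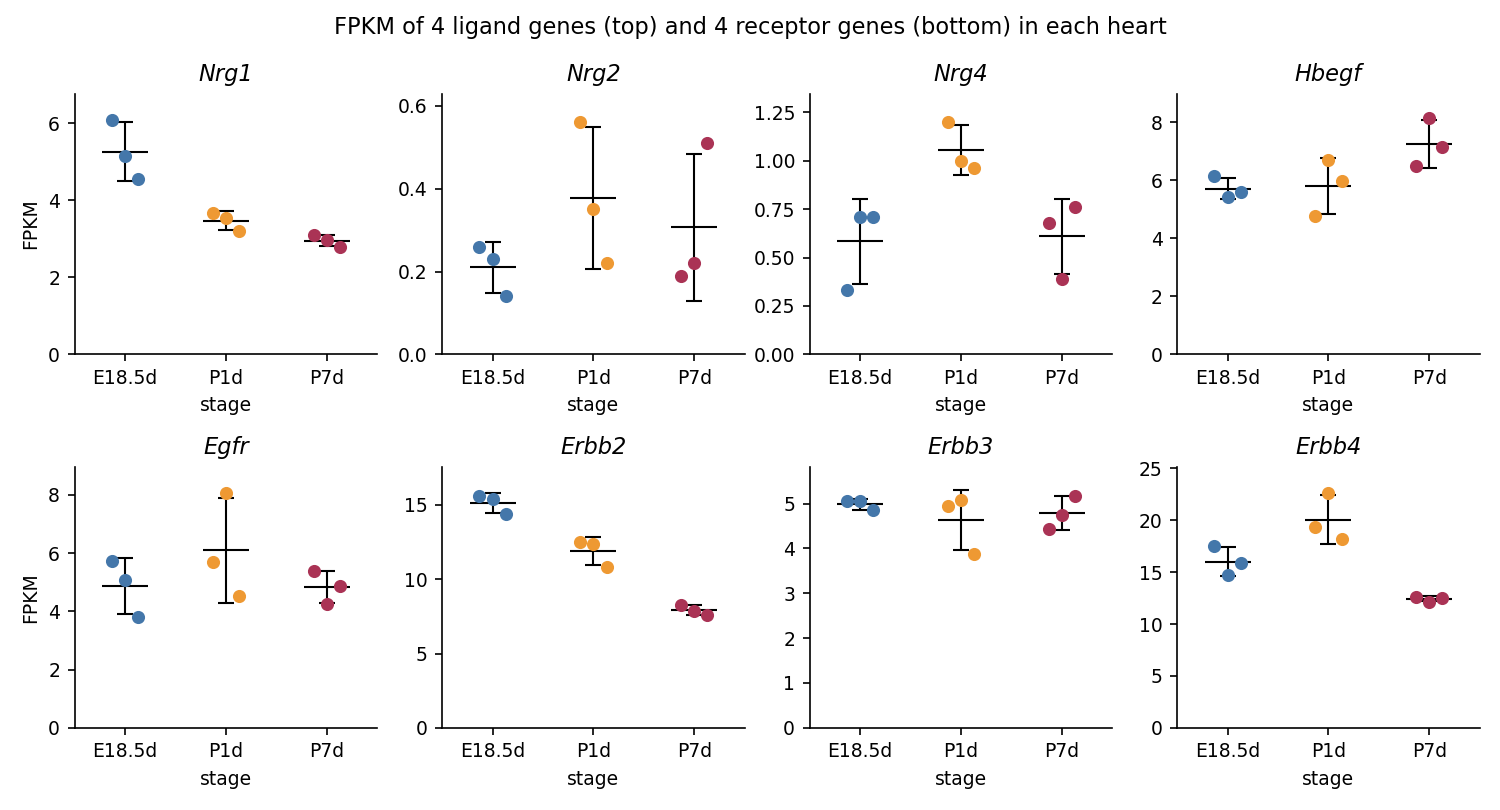
FPKM (y axis, from 0, with its own scale for each gene) of the 4 ligand genes and the 4 receptor genes at each stage (x axis), with 1 point per heart, the mean as a horizontal line and the SD as error bars (n = 3). *Nrg1* and *Erbb2* step down from E18.5d to P7d without overlap between stages, and *Erbb4* peaks at P1d.

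The deposited columns differed in scale. The median log2 change of all genes tested was -0.06 at P1d against E18.5d, -0.17 at P7d against E18.5d and -0.09 at P7d against P1d, and it came to 0.00, -0.02 and 0.00 when the columns were rescaled by the median of ratios. With that rescaling the share of higher genes among those called went from 40.0% to 50.3%, from 25.3% to 50.5% and from 35.1% to 52.5%. With columns rescaled to an equal sum, this share was 20.0%, 22.2% and 56.0%. A member whose call depended on the scale is named as such.

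*Nrg1* (ENSMUSG00000062991.7, chr8:31814551-32884029 of GRCm38, minus strand) measured 6.09, 5.16 and 4.55 FPKM in the 3 E18.5d hearts, 3.67, 3.54 and 3.20 FPKM in the P1d hearts, and 3.10, 2.97 and 2.80 FPKM in the P7d hearts. Every E18.5d heart was above every P1d heart, and every P1d heart was above every P7d heart. The change at P1d against E18.5d was -0.48 ± 0.10 on the log2 scale (SE, adjusted p = 0.00396), or 34.1% less FPKM in the mean. At P7d against E18.5d it was -0.66 ± 0.10 (adjusted p = 0.000661), or 43.9% less. The step from P1d to P7d, -0.18 ± 0.10, missed the threshold (adjusted p = 0.189, 95% interval -0.40 to 0.05). Both calls held under all 4 other scalings of the columns.

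The endothelial and endocardial markers were set beside *Nrg1*, which these cells are known to make. All 8 were above 1 FPKM in every heart, and their sum was 373 to 402 FPKM at E18.5d, 412 to 448 FPKM at P1d and 454 to 474 FPKM at P7d. At P7d against E18.5d, 4 of the 8 rose and 3 fell. The 3 that fell were *Npr3*, *Nfatc1* and *Emcn*. *Npr3*, a natriuretic peptide receptor, ran from 17.0 to 22.1 FPKM at E18.5d, from 14.1 to 17.1 FPKM at P1d and from 5.67 to 7.89 FPKM at P7d (log2 change -1.38, adjusted p = 3.42e-05). *Nfatc1*, a transcription factor of the cushions, changed by -0.39 (adjusted p = 0.00235) and *Emcn*, a surface sialomucin, by -0.77 (adjusted p = 0.000129). At P1d, when *Nrg1* was already lower, none of these 3 passed the test, with *Npr3* at -0.33 (adjusted p = 0.0594). *Kdr*, a VEGF receptor of endothelium, was the 1 marker of the list that fell at P1d (-0.36, adjusted p = 0.000604), and at P7d it was above its E18.5d level (0.43, adjusted p = 0.000215). The 2 markers that rose at P1d were *Tie1* (0.66, adjusted p = 0.000387) and *Pecam1* (0.42, adjusted p = 0.00174). Among those that rose at P7d against E18.5d were *Pecam1*, by 0.36, and *Cdh5*, by 0.57, both present on all endothelium. The part of these cells in the level of *Nrg1* was not tested. Exons of *Nrg1* share 482 of 10351 bases with the opposite-strand lincRNA *Gm26578*, whose reads cannot be told apart from its own if strand was not used in counting.

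*Hbegf* (ENSMUSG00000024486.5, chr18:36504927-36515805, minus strand), the gene of HB-EGF, measured 6.13, 5.42 and 5.58 FPKM at E18.5d, 4.76, 6.69 and 5.96 FPKM at P1d, and 6.48, 8.13 and 7.13 FPKM at P7d. The 3 P7d hearts were above all E18.5d hearts, while the P1d hearts spread over both. The difference at P7d against E18.5d, 0.29 ± 0.12 on the log2 scale, missed the threshold on the deposited scale (adjusted p = 0.0611). It passed with columns rescaled by the median of ratios (0.45, adjusted p = 0.0144), by quantiles (0.45, adjusted p = 0.0144) or to an equal sum of protein-coding genes (0.44, adjusted p = 0.00859), and it did not with an equal sum of all genes. It also passed without P1d replicate 1 (adjusted p = 0.0310) or without P1d replicate 2 (adjusted p = 0.0409), hearts that enter only the estimate of the spread, and in the fit on only the 2 stages compared (adjusted p = 0.0283). P7d against P1d gave 0.28 ± 0.12 (adjusted p = 0.0761), and passed with equal sums (0.40, adjusted p = 0.0156), equal protein-coding sums (0.42, adjusted p = 0.0115), the median of ratios (0.38, adjusted p = 0.0306) and without P1d replicate 2 (0.38, adjusted p = 0.0308). P1d against E18.5d was 0.01 ± 0.12 (adjusted p = 0.948).

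*Nrg4* (ENSMUSG00000032311.17, chr9:55220222-55326844, minus strand), a ligand known as a secreted factor of brown fat, was low. It measured 0.33, 0.71 and 0.71 FPKM at E18.5d, 1.20, 1.00 and 0.96 FPKM at P1d and 0.68, 0.39 and 0.76 FPKM at P7d, which stands for about 48 to 195 fragments per heart. The 3 P1d hearts were above the other 6. The exact two-sided permutation test gave p = 0.1 for P1d against either other stage, the smallest p that 3 hearts against 3 allow. In the fit without a filter on low values, P1d against E18.5d was 0.38 ± 0.13 (adjusted p = 0.0728) and P7d against P1d was -0.36 ± 0.13 (adjusted p = 0.0964), both short of the threshold. The summed level of 7 fat markers was 23.3 to 25.0 FPKM at E18.5d, 37.4 to 45.7 FPKM at P1d and 48.2 to 54.1 FPKM at P7d. Only 2 of the 7 were at 1 FPKM or more in every heart. Of the 5 tested, *Cidea* (1.61), *Adipoq* (1.41) and *Cebpa* (0.44) were called higher at P1d against E18.5d, and none was called lower. *Ucp1*, the uncoupling protein that defines brown fat, was listed at 0 in the 3 E18.5d hearts, at 0 to 1.31 FPKM at P1d and at 5.77 to 7.26 FPKM at P7d. *Adipoq*, an adipocyte hormone, was highest at P1d with 1.91 to 3.09 FPKM, against 0.42 FPKM at most at E18.5d and 0.86 to 1.01 FPKM at P7d. The part of fat in the *Nrg4* level was not tested. Exons of *Nrg4* share 368 of 6075 bases with the opposite-strand gene *Fbxo22* and 177 with the pseudogene *Gm15625*, so its value is uncertain.

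*Nrg2* (ENSMUSG00000060275.11, chr18:36017652-36197380, minus strand) was the lowest of the 8 genes at every stage. It measured 0.26, 0.23 and 0.14 FPKM at E18.5d, 0.56, 0.35 and 0.22 FPKM at P1d, and 0.19, 0.22 and 0.51 FPKM at P7d. The stages overlapped, and the values rest on about 12 to 63 fragments per heart. No difference was detectable at this depth, with exact two-sided permutation p values of 0.3 and 0.6 against E18.5d and 0.6 for P7d against P1d. The identifier versions of *Nrg2* and *Hbegf* in the table differ from those in GENCODE M21, from which the positions were taken.

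*Erbb4* (ENSMUSG00000062209.15, chr1:68032186-69108059, minus strand), the neuregulin receptor of cardiomyocytes, was the most abundant of the 8 genes at every stage in the mean. It measured 17.48, 14.71 and 15.86 FPKM at E18.5d, 19.33, 22.68 and 18.20 FPKM at P1d, and 12.58, 12.16 and 12.55 FPKM at P7d. The P1d hearts were above all others, and the P7d hearts were below all others. The fall from P1d to P7d was -0.64 ± 0.09 on the log2 scale (adjusted p = 0.000469, 95% interval -0.84 to -0.44) and was called under all 4 other scalings, at -0.50 to -0.54. The rise at P1d, 0.31 ± 0.09 (adjusted p = 0.0194), was called under 3 of them. It was lost with columns rescaled to an equal sum (0.14, adjusted p = 0.259), without E18.5d replicate 2 (0.25, adjusted p = 0.0758), without E18.5d replicate 3 (0.30, adjusted p = 0.0529) and without P1d replicate 2 (0.22, adjusted p = 0.0529). The difference at P7d against E18.5d, -0.34 ± 0.09 (adjusted p = 0.0114), was called with equal sums (-0.38). It was lost with the median of ratios (-0.17, adjusted p = 0.153), equal protein-coding sums (-0.18, adjusted p = 0.0855) and quantiles (-0.19, adjusted p = 0.0971).

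The cardiomyocyte markers were set beside *Erbb4*. Their sum was 31668 to 33920 FPKM at E18.5d, 35735 to 40821 FPKM at P1d and 37797 to 39647 FPKM at P7d. At P1d against E18.5d, 5 of the 8 rose and none fell. At P7d against P1d, *Myh6*, the adult-type myosin heavy chain, rose by 0.30 and *Actn2*, a protein of the Z disc, by 0.27, while *Tnnt2*, a subunit of troponin, fell by 0.64 on the log2 scale. The part of cardiomyocyte number in the *Erbb4* level was not tested.

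*Erbb2* (ENSMUSG00000062312.5, chr11:98412470-98437716, plus strand), the shared partner of the other receptors, measured 15.59, 15.43 and 14.37 FPKM at E18.5d. It measured 12.52, 12.34 and 10.83 FPKM at P1d and 8.29, 7.86 and 7.60 FPKM at P7d. The stages followed each other without overlap, so that P7d hearts held 47.7% less than E18.5d hearts in the mean. The change was -0.32 ± 0.07 at P1d against E18.5d (adjusted p = 0.0055), -0.86 ± 0.07 at P7d against E18.5d (adjusted p = 2.09e-05) and -0.53 ± 0.07 at P7d against P1d (adjusted p = 0.000441). All 3 were called under the 4 other scalings and with each heart left out in turn, with ranges over the hearts left out of -0.36 to -0.26, -0.89 to -0.83 and -0.59 to -0.50. Exons of *Erbb2* share 9 of 5210 bases with the opposite-strand gene *Mien1*.

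The sequence before the start is shown for *Erbb4* and *Erbb2*, the receptors that went in opposite directions at P1d, from RefSeq (GRCm38.p6), 5′ to 3′ on the strand of the gene. A match to the CCAAT box (CCAAT, searched on both strands together with the GC box GGGCGG) is in capitals.
*Erbb4*, chr1:69108060-69108309, minus strand: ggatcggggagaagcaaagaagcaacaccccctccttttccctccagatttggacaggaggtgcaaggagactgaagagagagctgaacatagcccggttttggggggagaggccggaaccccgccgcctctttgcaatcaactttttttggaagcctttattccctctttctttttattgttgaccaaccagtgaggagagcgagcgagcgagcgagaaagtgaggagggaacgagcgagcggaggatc
*Erbb2*, chr11:98412234-98412469, plus strand: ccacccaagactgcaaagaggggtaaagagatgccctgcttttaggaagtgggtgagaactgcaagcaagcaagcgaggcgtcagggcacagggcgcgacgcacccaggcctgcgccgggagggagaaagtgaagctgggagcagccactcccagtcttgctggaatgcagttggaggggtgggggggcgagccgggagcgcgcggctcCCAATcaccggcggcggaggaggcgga
The *Erbb2* window held 1 CCAAT match and the *Erbb4* window none, and neither held GGGCGG. Over the 250 bases before the start of 32851 RefSeq promoters, 33.8% held CCAAT and 32.7% held GGGCGG, so such a match is common. These are letters in a window, not sites. Of the 8 genes, 4 were in the promoter table.

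*Erbb3* (ENSMUSG00000018166.8, chr10:128567523-128589652, minus strand) measured 5.05, 5.07 and 4.85 FPKM at E18.5d, 4.94, 5.09 and 3.87 FPKM at P1d, and 4.43, 4.75 and 5.18 FPKM at P7d. The stages overlapped, with P1d replicate 3 as the lowest heart. No change passed the test. The 95% intervals were -0.32 to 0.13 at P1d against E18.5d, -0.27 to 0.17 at P7d against E18.5d and -0.18 to 0.27 at P7d against P1d, so that changes of the size seen for *Erbb2* at P7d lie outside them. ErbB3 is well known in Schwann cells, and the 6 markers of these cells were low in all hearts, with a sum of 3.17 to 6.94 FPKM. None was listed at 0 in every heart, and *Sox10*, their defining transcription factor, was at 0.28 to 0.89 FPKM.

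*Egfr* (ENSMUSG00000020122.16, chr11:16752203-16918158, plus strand), the receptor of HB-EGF and of most other EGF-family ligands, measured 5.72, 5.08 and 3.81 FPKM at E18.5d, 5.70, 8.06 and 4.53 FPKM at P1d, and 5.38, 4.26 and 4.86 FPKM at P7d. The stages overlapped, and P1d replicate 2 stood above the other 8 hearts. No change passed the test, at 0.26 ± 0.18 (adjusted p = 0.275), 0.00 ± 0.18 (adjusted p = 0.999) and -0.26 ± 0.18 (adjusted p = 0.281), with intervals wide enough (-0.41 to 0.41 at P7d against E18.5d) to hold a change as large as that of *Erbb4* in that comparison.

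**Figure D2:**
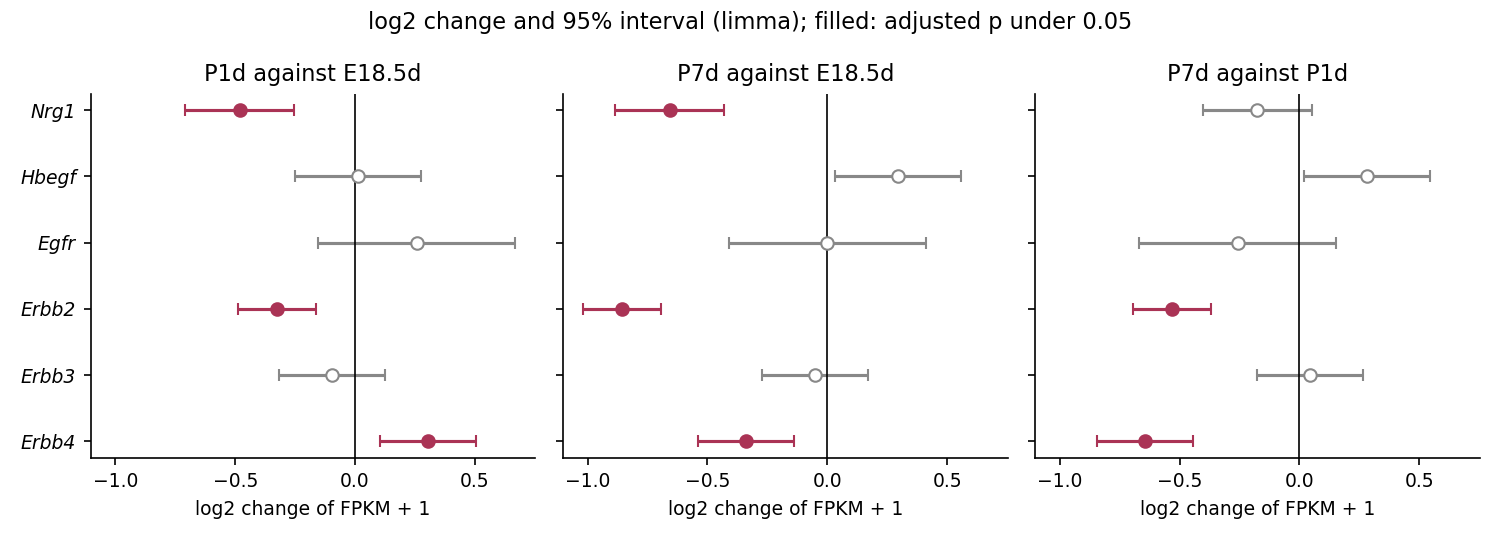
log2 change of FPKM + 1 (x axis) with its 95% interval for the 6 genes tested (y axis) in the 3 comparisons, from the limma fit of 9 hearts, filled where the adjusted p was under 0.05. *Erbb2* is called in all 3 panels, *Erbb4* changes sign between P1d and P7d, and *Erbb3* and *Egfr* stay across 0.

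The order of the levels changed with stage. At E18.5d, *Erbb4* (16.0 ± 1.39 FPKM, SD, n = 3) and *Erbb2* (15.1 ± 0.663 FPKM) led and their hearts overlapped. They were followed by *Hbegf* (5.71 ± 0.372 FPKM), *Nrg1* (5.27 ± 0.776 FPKM), *Erbb3* (4.99 ± 0.122 FPKM) and *Egfr* (4.87 ± 0.972 FPKM), where each neighbour overlapped the next. *Nrg4* (0.583 ± 0.219 FPKM) and *Nrg2* (0.210 ± 0.0625 FPKM) came last, without overlap between them. At P1d, *Erbb4* (20.1 ± 2.33 FPKM) stood clear of *Erbb2* (11.9 ± 0.928 FPKM), and *Erbb2* stood clear of *Egfr* (6.10 ± 1.8 FPKM), *Hbegf* (5.80 ± 0.974 FPKM) and *Erbb3* (4.63 ± 0.665 FPKM), which overlapped in that order. *Nrg1* (3.47 ± 0.243 FPKM), *Nrg4* (1.05 ± 0.129 FPKM) and *Nrg2* (0.377 ± 0.172 FPKM) followed without overlap. At P7d, *Erbb4* (12.4 ± 0.234 FPKM) again stood clear, *Erbb2* (7.92 ± 0.348 FPKM) overlapped *Hbegf* (7.25 ± 0.831 FPKM), and *Egfr* (4.83 ± 0.560 FPKM) overlapped *Erbb3* (4.79 ± 0.376 FPKM). *Nrg1* (2.96 ± 0.15 FPKM) was below these, and *Nrg4* (0.610 ± 0.195 FPKM) overlapped *Nrg2* (0.307 ± 0.177 FPKM).

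Ratios between genes of the same heart do not depend on the scale of its column. The 3 ratios given here were chosen after the values were seen. *Erbb4* to *Erbb2* was 1.12, 0.953 and 1.10 in the E18.5d hearts, 1.54, 1.84 and 1.68 in the P1d hearts, and 1.52, 1.55 and 1.65 in the P7d hearts. In FPKM the 2 receptors were thus near parity before birth, and *Erbb4* exceeded *Erbb2* by more than 1.5 times in every heart after it. There was no overlap between E18.5d and the later stages, and P1d and P7d overlapped (exact permutation p = 0.3). The level of such a ratio rests on the transcript lengths used for FPKM, which are not given in the sources used here. *Hbegf* to *Nrg1* was 1.01, 1.05 and 1.23 at E18.5d, 1.297, 1.89 and 1.86 at P1d, and 2.09, 2.74 and 2.55 at P7d, higher at each stage than at the one before, without overlap. *Erbb2* to *Erbb3* was 3.09, 3.04 and 2.96 at E18.5d, 2.53, 2.42 and 2.80 at P1d, and 1.87, 1.65 and 1.47 at P7d, again without overlap. Each of the other 8 comparisons of these ratios gave the exact two-sided permutation p of 0.1 that is the smallest for 3 hearts against 3.

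**Figure D3:**
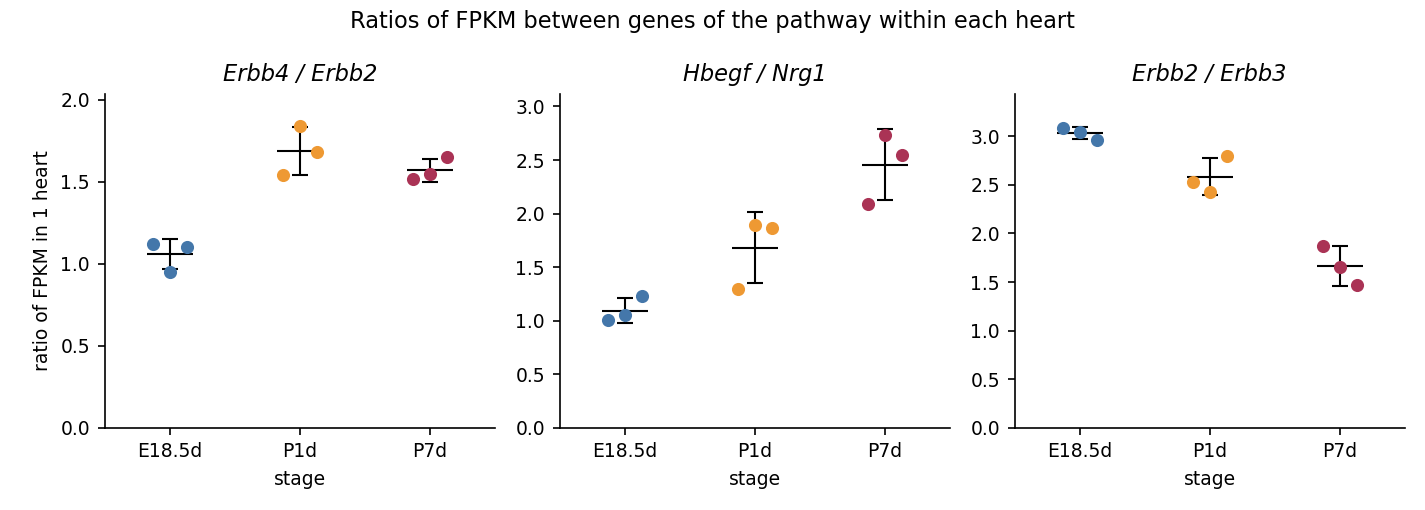
Ratio of the FPKM of 2 genes within 1 heart (y axis, from 0) at each stage (x axis), with 1 point per heart, the mean as a line and the SD as error bars (n = 3). *Erbb4* to *Erbb2* lies at 0.953 to 1.12 at E18.5d and at 1.52 to 1.84 after birth.

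In sum of FPKM, the 4 receptors stood at 41.0 ± 2.55 before birth (SD, n = 3), 42.7 ± 5.37 on the 1st day and 29.97 ± 0.847 on the 7th. Of that sum, *Erbb2* made up 36.9% ± 1.37 before birth, 28.01% ± 2.09 on the 1st day and 26.4% ± 1.08 on the 7th. *Erbb4* made up 39.1% ± 2.25, 47.1% ± 1.57 and 41.5% ± 0.448, so that its P1d hearts were above the others. *Erbb3* made up 12.2% ± 0.585, 10.8% ± 0.687 and 16.0% ± 1.40. The 4 ligands summed to 11.8 ± 0.940 FPKM, 10.7 ± 0.763 FPKM and 11.1 ± 0.634 FPKM, stages that overlapped. Within them, *Nrg1* made up 44.6% ± 3.06, 32.5% ± 3.04 and 26.7% ± 2.59 and *Hbegf* 48.6% ± 1.99, 54.0% ± 6.35 and 65.0% ± 3.89. These sums, shares and ratios are over all 9 hearts.

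**Figure D4:**
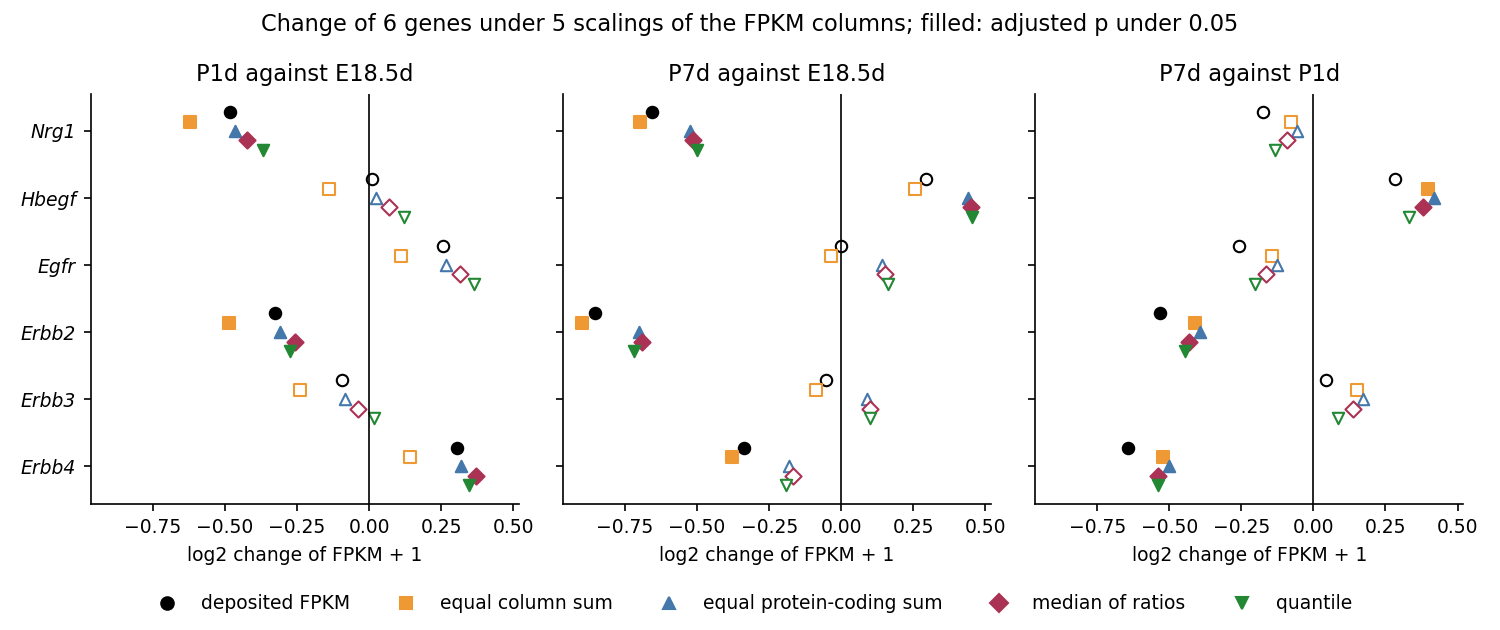
log2 change of FPKM + 1 (x axis) of the 6 genes tested (y axis) on the deposited scale and under 4 other scalings of the columns (symbols), filled where the adjusted p was under 0.05. *Nrg1* and *Erbb2* stay on the lower side throughout, the P7d against E18.5d call of *Erbb4* is lost under 3 scalings, and *Hbegf* is called at P7d under some.

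Leaving out the hearts that stood apart kept the direction of each of the 8 member calls. Every E18.5d heart held *Xist*, the airway genes or both. Leaving out either set therefore kept an E18.5d heart of the other set, and no comparison with E18.5d was freed of both. A covariate for *Xist* kept the calls at 3, 3 and 2 in the 3 comparisons. Without the 4 *Xist* hearts, 1 heart remained at E18.5d and 1 at P7d, each assumed to vary like the P1d hearts. In that limma fit no member was called in any comparison, and fewer of all genes were called in each than with all hearts. *Nrg1* was at -0.46 and -0.59 against E18.5d, *Erbb2* at -0.35, -0.82 and -0.47 over the 3 comparisons, and *Erbb4* at 0.42, -0.21 and -0.63. Without the 3 hearts with airway genes, an alternative chosen after seeing the data, 1 heart remained at E18.5d. In each comparison, fewer of all genes were called in that fit than with all hearts. No member was then called at P1d against E18.5d, where *Nrg1* was at -0.35, *Erbb2* at -0.29 and *Erbb4* at 0.34. *Nrg1* (-0.49, adjusted p = 0.0414) and *Erbb2* (-0.79, adjusted p = 0.00937) remained called at P7d against E18.5d, *Erbb4* did not (-0.33, adjusted p = 0.126), and *Erbb2* (-0.50) and *Erbb4* (-0.67) remained called at P7d against P1d.

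Of the 7 other EGF-family ligand genes, *Egf* and *Tgfa* were tested and only *Tgfa* was called. *Tgfa*, the gene of transforming growth factor alpha, a ligand of EGFR, measured 2.17, 1.71 and 1.92 FPKM at E18.5d, 1.68, 1.92 and 1.67 FPKM at P1d, and 1.19, 1.08 and 1.06 FPKM at P7d. The P7d hearts were below all others, with -0.47 ± 0.10 against E18.5d (adjusted p = 0.0044) and -0.38 ± 0.10 against P1d (adjusted p = 0.0140), of which the latter was lost under 1 of the 4 other scalings. *Egf* ran from 1.56 to 2.62 FPKM over the 9 hearts, and its stages overlapped. *Btc*, the gene of betacellulin, a ligand of EGFR and ErbB4, was below the filter on low values with 1.29 to 1.40 FPKM at E18.5d, 0.44 to 0.85 FPKM at P1d and 0.59 to 0.77 FPKM at P7d. Its E18.5d hearts were above all others, and in the fit without a filter it changed by -0.54 at P1d (adjusted p = 0.00766) and by -0.51 at P7d (adjusted p = 0.00907). *Nrg3*, *Areg*, *Ereg* and *Epgn* stayed at 0.27 FPKM or less in every heart. Of these, *Ereg*, the gene of epiregulin, was called lower at P7d than at P1d in the fit without a filter (-0.13, adjusted p = 0.0442), with 0.10 to 0.17 FPKM against 0.19 to 0.27 FPKM.

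The other genes of the pathway were taken from 6 lists of 97 genes in all, of which 89 were tested. At P1d against E18.5d, 19 were higher and 25 lower. At P7d against E18.5d, 18 were higher and 27 lower, and at P7d against P1d 21 were higher and 22 lower. Among all genes tested, 18.4% were higher and 27.6% lower, 12.5% and 36.9%, and 15.5% and 28.6% in the same order. The shares called among the 89 genes were close to those of all genes, 46.0%, 49.4% and 44.2%. These background shares also apply to each list below. The median log2 changes of the 89 genes were -0.05, -0.08 and -0.04, beside -0.06, -0.17 and -0.09 for all genes. The split depended on the scale of the columns, with 26 higher and 20 lower, 25 and 13, and 32 and 17 after rescaling by the median of ratios, and 7 and 32, 12 and 26, and 19 and 10 with equal column sums. The genes named from these lists, beside *Tgfa*, are the 3 with the largest changes in each comparison among those called whose hearts did not overlap. Of the 47 changes that this rule picks, none was reversed and 42 were called under all 4 other scalings. The changes were picked from these same hearts, so neither this nor the fits with fewer hearts is an independent check. Without the *Xist* hearts, and also without the hearts with airway genes, fewer of the 89 genes were called in each comparison than with all hearts. The same held for all genes tested, and each of these fits left 1 heart at E18.5d. Of the 47 changes, 5 and 38 were called in these fits with fewer hearts, and none was reversed.

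**Figure D5:**
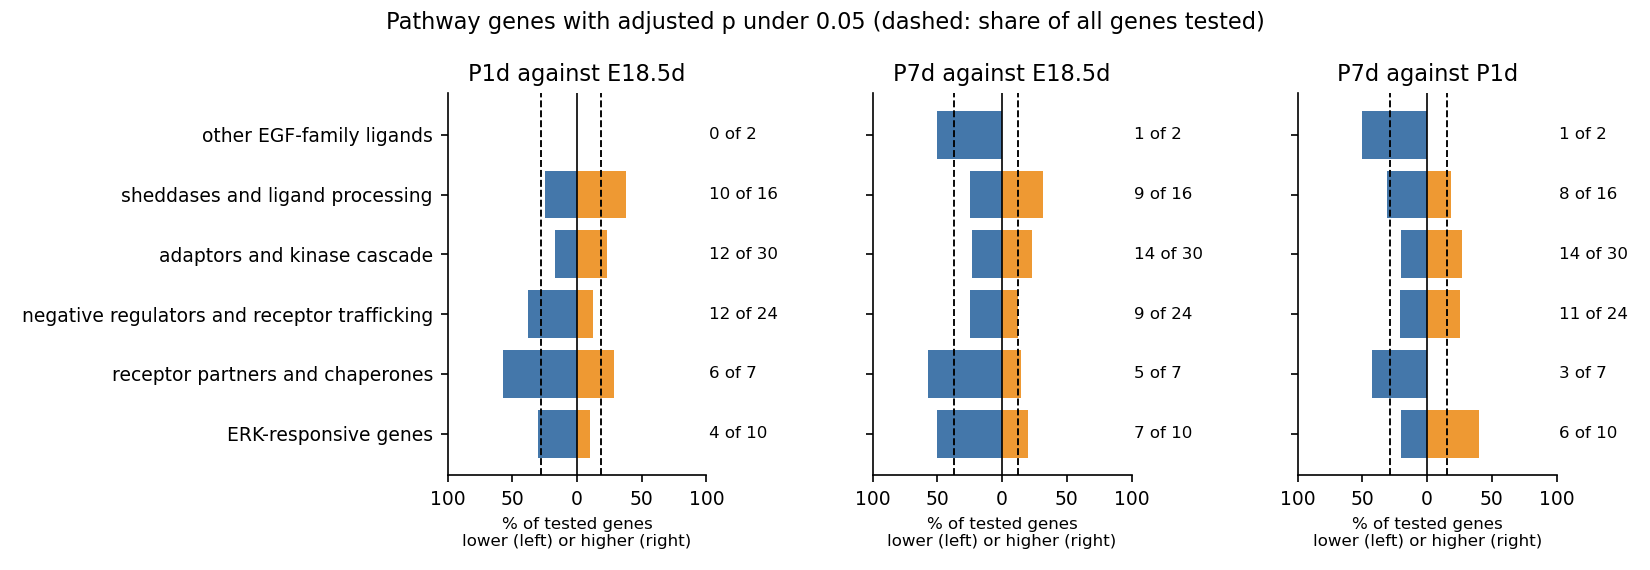
Percent of the tested genes of each pathway list (y axis) that were lower (left, blue) or higher (right, orange) in each comparison, with the number called of the number tested beside each bar and dashed lines at the share of all genes. Called genes of most lists lie on both sides of 0, and the list of receptor partners and chaperones has 4, 4 and 3 of 7 genes lower in the 3 panels.

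Among 18 genes of ligand shedding and processing, 16 were tested. At P1d 6 were higher and 4 lower, at P7d against E18.5d 5 were higher and 4 lower, and at P7d against P1d 3 were higher and 5 lower, with medians of 0.04, 0.02 and -0.04. *Timp3*, an inhibitor of the sheddase ADAM17, was at 49.7 to 54.4 FPKM at E18.5d, 69.0 to 104 FPKM at P1d and 39.8 to 44.1 FPKM at P7d. It rose by 0.75 at P1d (adjusted p = 0.00149) and then changed by -1.08 (adjusted p = 0.000231). *Adam19*, a protease that can cleave neuregulin, measured 26.6 to 27.4 FPKM at E18.5d, 18.9 to 22.3 FPKM at P1d and 36.7 to 40.5 FPKM at P7d, a change of 0.89 from P1d to P7d (adjusted p = 2.76e-05) and of 0.49 against E18.5d (adjusted p = 0.000427). *Adam12*, a protease known to shed HB-EGF, fell at P1d (-0.63, adjusted p = 0.000651). *Adam10*, a sheddase of several EGF-family ligands, was lower at P7d than at E18.5d (-0.46, adjusted p = 0.00132), and *Adam15* was higher (0.53, adjusted p = 0.00045). Of the gamma-secretase subunits, which cleave the ErbB4 stub, *Psen2* rose at P1d (0.51, adjusted p = 0.00205) and *Psenen* fell from P1d to P7d (-0.58, adjusted p = 0.000147).

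All 30 genes of adaptors and the kinase cascade were tested. At P1d 7 were higher and 5 lower, at P7d against E18.5d 7 were higher and 7 lower, and at P7d against P1d 8 were higher and 6 lower, with medians of -0.02, -0.06 and 0.04. *Stat5a*, a transcription factor activated by ErbB4, was at 2.76 to 3.42 FPKM at E18.5d, 7.07 to 8.63 FPKM at P1d and 7.39 to 9.41 FPKM at P7d. It rose by 1.07 at P1d (adjusted p = 7.27e-05) and was higher by 1.21 at P7d (adjusted p = 3.17e-05). Its relative *Stat5b* rose from P1d to P7d (0.53, adjusted p = 0.000186), and *Stat3*, which many cytokines activate, exceeded its E18.5d level at P7d (0.75, adjusted p = 0.000284). *Plcg1*, a phospholipase that binds activated receptors, rose at P1d (0.65, adjusted p = 0.000422). *Map2k1*, a kinase that activates ERK, went from 25.5 to 29.2 FPKM at E18.5d to 17.6 to 18.9 FPKM at P1d (-0.56, adjusted p = 0.000179). Of the PI3-kinase branch, *Pik3r1*, a regulatory subunit that ErbB3 recruits, fell from P1d to P7d (-0.66, adjusted p = 0.00117), as did the adaptor *Gab1* (-0.48, adjusted p = 0.000322).

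Of 24 negative regulators and trafficking genes, all tested, 3 were higher and 9 lower at P1d, 3 higher and 6 lower at P7d against E18.5d, and 6 higher and 5 lower at P7d against P1d. The medians were -0.09, -0.10 and -0.10. *Spry4*, a feedback inhibitor of the RAS and ERK pathway, was at 6.78 to 7.50 FPKM at E18.5d, 3.17 to 3.66 FPKM at P1d and 6.24 to 7.30 FPKM at P7d. It changed by -0.91 at P1d (adjusted p = 3.65e-05) and by 0.84 from P1d to P7d (adjusted p = 7.43e-05). *Spry1*, of the same family, moved the other way at P1d (0.53, adjusted p = 0.00245). It was also higher at P7d than at E18.5d (0.69, adjusted p = 0.000501). Among the dual-specificity phosphatases, which inactivate MAP kinases, *Dusp4* was lower at P7d than at E18.5d (-0.83, adjusted p = 0.00443) and than at P1d (-0.77, adjusted p = 0.00762), and *Dusp5* rose from P1d to P7d (0.74, adjusted p = 0.000488). *Nedd4*, a ubiquitin ligase, fell from 419 to 443 FPKM at E18.5d to 263 to 302 FPKM at P7d (-0.60, adjusted p = 9.72e-05), and the phosphatase *Ptpn12* fell at P1d (-0.59, adjusted p = 0.000741).

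Of 8 receptor partners and chaperones, 7 were tested. At P1d 2 were higher and 4 lower, at P7d against E18.5d 1 was higher and 4 lower, and at P7d against P1d none was higher and 3 were lower. The medians, over only 7 genes, were -0.24, -0.39 and -0.22, below those of all genes. *Hsp90aa1* and *Hsp90ab1*, the cytosolic HSP90 chaperones on which the stability of ErbB2 depends, were both among those lower at P1d and at P7d than at E18.5d. *Hsp90aa1* went from 72.3 to 93.1 FPKM at E18.5d to 43.2 to 47.8 FPKM at P1d (-0.83, adjusted p = 0.000126) and 36.5 to 41.2 FPKM at P7d (-1.04, adjusted p = 2.95e-05). *Hsp90ab1* went from 665 to 693 FPKM at E18.5d to 462 to 474 FPKM at P7d (-0.54, adjusted p = 3.7e-05). Its step from P1d to P7d (-0.30, adjusted p = 0.00129) was called under only 1 of the 4 other scalings. *Erbin*, which binds the tail of ErbB2, was called higher at P1d (0.39, adjusted p = 0.00976) and lower from P1d to P7d (-0.56, adjusted p = 0.00158). *Cd9*, a tetraspanin that associates with the HB-EGF precursor, was called higher at P1d (0.30, adjusted p = 0.00429). The P1d calls of *Erbin* and *Cd9* were each lost under 1 scaling. *Sdc4*, a heparan sulfate proteoglycan, was lower at P7d than at E18.5d (-0.53, adjusted p = 0.0116), lost under 1 scaling, and than at P1d (-0.84, adjusted p = 0.00131).

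Of 10 genes known to respond to ERK, all tested, 1 was higher and 3 lower at P1d, 2 higher and 5 lower at P7d against E18.5d, and 4 higher and 2 lower at P7d against P1d, with medians of -0.10, -0.26 and 0.06. The immediate early gene *Fos* was at 1.98 to 2.28 FPKM at E18.5d, 4.73 to 7.34 FPKM at P1d and 4.84 to 7.03 FPKM at P7d, higher by 1.20 (adjusted p = 0.000244) and 1.16 (adjusted p = 0.00028). *Egr1*, another immediate early gene, was higher at P7d than in either earlier stage (1.11 against E18.5d, adjusted p = 0.00199, and 1.01 against P1d, adjusted p = 0.00399). *Myc*, a growth-promoting transcription factor, measured 8.25 to 9.33 FPKM at E18.5d, 8.76 to 13.8 FPKM at P1d and 3.02 to 3.83 FPKM at P7d, with -1.16 against E18.5d (adjusted p = 0.000181) and -1.40 against P1d (adjusted p = 9.56e-05). *Ccnd1*, the cyclin of early G1, was at 35.0 to 39.1 FPKM at E18.5d, 17.5 to 23.2 FPKM at P1d and 34.3 to 39.9 FPKM at P7d, a fall at P1d (-0.89, adjusted p = 0.000145) followed by a rise (0.87, adjusted p = 0.000205). *Phlda1* fell at P1d (-1.17, adjusted p = 0.00099). Members of the list thus moved in both directions within a comparison.

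The protein-coding genes whose pattern over the 9 hearts was most like that of a member were named by Pearson's r of log2(FPKM + 1), as a description. The points share stages, libraries and depth. For *Erbb2* these were *Grhl3*, a transcription factor of epithelia (r = 0.994), *Abat*, the GABA transaminase (r = 0.992), and *Pank1*, a kinase of coenzyme A synthesis (r = 0.991), and *Grhl3* went from 1.91 to 2.39 FPKM at E18.5d to 0.17 to 0.27 FPKM at P7d. For *Erbb4* they were *Gabarap*, a protein of autophagosomes (r = 0.990), *Tmem120a* (r = 0.988) and *Ramp2*, the partner of the adrenomedullin receptor (r = 0.981), and *Ramp2* also stood highest at P1d, with 111 to 141 FPKM against 103 to 106 FPKM at E18.5d and 77.4 to 79.3 FPKM at P7d. For *Nrg1* they were *Rbm45*, an RNA-binding protein (r = 0.990), *Emg1*, a methyltransferase of ribosomal RNA (r = 0.981), and *Lrrcc1* (r = 0.978). For *Hbegf* they were *Ppm1j* (r = 0.942), *Adssl1*, the muscle adenylosuccinate synthase (r = 0.942), and *Tmem88* (r = 0.941). For *Egfr* they were *Dhx34* (r = 0.954), *Errfi1* (r = 0.948) and *Osbp* (r = 0.947). *Errfi1* encodes a feedback inhibitor of EGFR and also stands in the list of negative regulators. It measured 16.2 FPKM in P1d replicate 2, the heart in which *Egfr* was highest, and 9.45 to 12.4 FPKM in the others. For *Erbb3* they were *Rasa3* (r = 0.917), *Ifrd2* (r = 0.911) and *Sympk* (r = 0.901). Among the members themselves, r was 0.90 between *Nrg1* and *Erbb2*, 0.62 between *Erbb2* and *Erbb4*, 0.31 between *Nrg1* and *Erbb4* and -0.71 between *Hbegf* and *Erbb2* over the same 9 hearts.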

How the data were processed

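RNA-seq of 9 hearts was used. The authors deposited FPKM values of 48820 genes, 1 column per heart, and none was left out. Per the labels, total RNA was extracted with Trizol and libraries were made with a NEBNext Ultra RNA kit, and the submitters' processing notes name STAR, GRCm38 and mm10. The counting tool, annotation and strand setting are not given in the sources used here. Library depth was estimated from the smallest steps of the FPKM values, where 82.3% to 87.1% of low values were whole within 0.15 fragment (largest error on simulated data 2.15%).

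Values were transformed to log2(FPKM + 1). A linear model of the 3 stages was fitted to the 13618 genes averaging 1 FPKM or more (limma 3.58.1, R 4.3.3, eBayes with a mean trend), with Benjamini-Hochberg adjustment over all genes and a threshold of 0.05. The study's methods name no test for the RNA-seq in the text used here. The fit was tested on simulated data. Single values were compared by exact two-sided permutation tests (scipy 1.17.1, numpy 2.4.6, Python 3.11.15). Positions come from GENCODE M21 (GRCm38), where 48058 identifiers matched, 40606 in the same version. The labels call the hearts biological replicates.

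The members and the gene lists were chosen with earlier results of these data known. The genes named are the 8 members, the 7 other EGF-family ligands, the 3 largest changes per list and comparison among called genes whose hearts did not overlap, the 3 genes most like each member, and markers that move with a member. A few values that this rule would name are not reported here. Results were recomputed with 4 other scalings, with a pseudocount of 0.1, with the filter removed or raised to 5 FPKM, without the mean trend, on only the 2 stages compared, with a replicate block, with calls limited to log2 changes of 1 or more in size, with a covariate for *Xist*, without the *Xist* hearts, without the hearts with airway genes (chosen after seeing the data), and with each heart left out in turn.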

Additional observations from a re-analysis of the deposited data

How the results depend on the processing

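The number of members called was 3, 3 and 2 of 6 at P1d against E18.5d, P7d against E18.5d and P7d against P1d. It came to 0, 0 and 0 without the *Xist* hearts and with calls limited to log2 changes of 1 or more in size, and to 0 at P1d against E18.5d without the hearts with airway genes, a fit with fewer hearts. Over the hearts left out in turn it was 2 to 3, 3 to 4 and 2 to 3. Deviations of the hearts from their stage means correlated at -0.05 to 0.11 between same-numbered hearts of different stages, 1 of 9 pairs above 0.1. Between hearts of different number they correlated at -0.18 to 0.13, 2 of 18 pairs above 0.1. With 3 hearts a stage, this cannot show whether the replicate numbers pair the hearts. The fit with the replicate block called 3, 3 and 2 members and changed no member's call.

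No reversal concerned a called change. At P1d against E18.5d, *Hbegf* reversed with equal column sums (-0.14), where leaving out each heart in turn gave -0.082 to 0.13. *Egfr* at P7d against E18.5d reversed with equal sums (-0.034), where leaving out each heart gave -0.14 to 0.10. *Erbb3* reversed at P1d against E18.5d with quantiles (0.016), with -0.16 to 0.0061 over the hearts left out. At P7d against E18.5d it reversed with equal protein-coding sums (0.088), the median of ratios (0.10) and quantiles (0.10). At P7d against P1d it reversed without the *Xist* hearts (-0.046), with -0.058 to 0.10 over the hearts left out. The cause was not tested. With a mean of at least 5 FPKM, *Nrg1* and *Erbb3* were not among the genes tested. Of 792 counts of higher or lower list genes under alternatives, 646 were within 1.5 times the main count.

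With 3 hearts a stage, exact tests cannot go below 0.1. Depth limits *Nrg2* and *Nrg4*. No P1d heart held *Xist*, so its presence and stage cannot be fully told apart.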
